A study of Mus musculus with 474 samples.

Results

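The myostatin and activin pathway genes described here are Mstn, Gdf11, Fst, Fstl3, Acvr2a, Acvr2b, Smad2, Smad3 and Smad7. They were taken by symbol from the deposited table, which held all 9 of them among 20612 genes, and all 9 passed the filter on low counts that left 18823 genes. Their levels were measured by RNA-seq of poly(A) RNA from skeletal muscle, named gastrocnemius in the methods of the study, of Diversity Outbred mice. Such mice descend from random matings among several inbred founders, and each has a genome of its own. All animals were fed the same high-fat, high-sugar diet (labelled 45percent fat), no other diet was included, and the labels gave neither an age nor a treatment that differed between animals. Females and males came from breeding generations 17, 18, 19, 21 and 23 as numbered in the sample titles (the methods of the study name generations 18, 19 and 21, and the titles were used), which made 10 groups of 45 to 50 animals with 1 library per animal.

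Myostatin, the product of Mstn, and its close relative GDF11 are secreted ligands of the transforming growth factor β family. They bind the activin receptors encoded by Acvr2a and Acvr2b, which act with a type I receptor to phosphorylate SMAD2 and SMAD3, whereas SMAD7 inhibits the activated receptor. Follistatin (Fst) and follistatin-like 3 (Fstl3) bind the ligands outside the cell and neutralise them. In skeletal muscle the pathway is best known as a brake on growth, since animals without myostatin have enlarged muscles.

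Libraries held between 35.9 M and 165.7 M estimated reads, with a median of 79.3 M in each sex, where M is the SI prefix mega. Genes of fast muscle fibres were abundant throughout, with Myh4, a fast myosin heavy chain, at 41080 to 94930 CPM (the counts of a gene per M counts of its library, after scaling) in females and 44110 to 92080 in males. In 5 libraries Xist, transcribed from the inactive X chromosome, or the Y-linked Ddx3y lay outside the range of the other libraries with the same label. Of these, 2 labelled female had almost no Xist (0.329 and 0.173 CPM) and no Ddx3y, and 1 labelled male had neither RNA. The other 2 had the main RNA of their labelled sex at its usual level, with 0.134 CPM of Ddx3y in a female and 13.4 CPM of Xist in a male. Without these 5 libraries 6 of the 9 genes were still called between sexes (54.7% of all genes), 4 in place of 5 between generations (7.21% of all genes) and 5 in place of 6 of the pairs described below. The last number in the sample titles, which the labels do not explain, was used to cut the libraries into 5 library blocks of 91 to 96. The numbers skip several values between the first block and the next, whereas the other boundaries were set here at every 96 numbers and follow no break in the numbering. All levels are of bulk tissue, in which fewer cells of a type and less RNA per cell cannot be told apart.

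Expressed per kilobase of exon, Mstn and Smad3 had the highest levels, with medians of 24.0 and 21.4 CPM per kilobase over all libraries. Mstn lay above Smad3 in 69.0% of libraries and below it in the rest, so their order was not fixed across animals. Acvr2a followed at 7.45 CPM per kilobase and lay below Smad3 in every library. Gdf11 (1.85), Smad7 (1.39), Smad2 (1.22) and Fst (1.16 CPM per kilobase) formed a closely spaced group. The higher gene of each neighbouring pair in that group exceeded the lower one in only 56.3% to 71.3% of the libraries. Acvr2b had a median of 0.844 CPM per kilobase, and Fstl3 was lowest at 0.503 CPM per kilobase. Acvr2b lay above Fstl3 in 88.4% of libraries.

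Between sexes, Gdf11 and Acvr2a showed the largest differences of the 9 genes, and both were higher in males. Mstn, Fst, Smad3 and Smad2 were also higher in males by smaller amounts, whereas Fstl3, Acvr2b and Smad7 did not pass the test. Thus 6 of 9 genes were called at an adjusted p under 0.05 by edgeR's quasi-likelihood test with sex and generation in the model. Of all genes tested, 55.0% were called between sexes, 24.4% higher and 30.6% lower in males. All 6 members called were higher in males, whereas over all genes 44.3% of the calls were higher in males, a share that fell to 30.8% when libraries were scaled by total count alone. The median difference, male minus female, was -0.014 on the log2 scale over all genes tested.

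**Figure D1:**
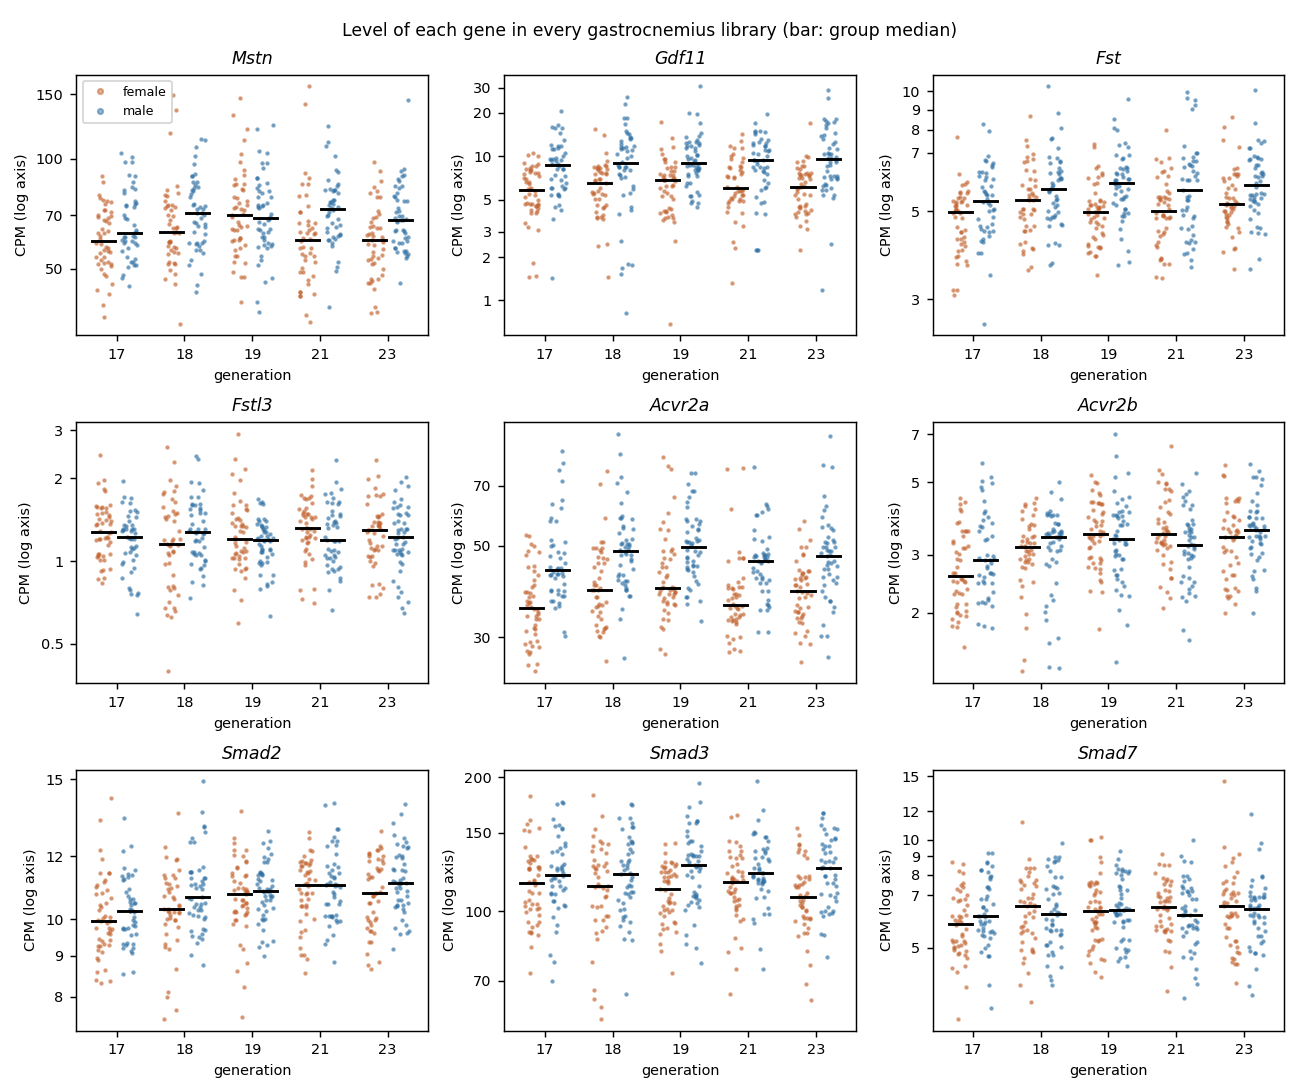
Level of each of the 9 genes in CPM (log axis) in every library, by generation on the horizontal axis, with females in orange, males in blue and a black bar at each group's median. The male median lies above the female one in all 5 generations for Gdf11, Fst, Acvr2a, Smad2 and Smad3, and the points of both sexes overlap in every panel.

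Among the ligands, Mstn (ENSMUSG00000026100, chromosome 1, 53061640 to 53068079, GRCm38) ranged from 35.4 to 157.6 CPM in females with a median of 62.5. In males it ranged from 38.0 to 145.1 CPM with a median of 68.7. The highest library was from a female, and 4 of the 10 highest libraries were from males, although 65.3% of males exceeded the female median. The male minus female difference was 0.13 on the log2 scale (SE 0.03, 1.09-fold, edgeR adjusted p = 0.000289). Taken one generation at a time, the log2 difference ran from -0.03 in generation 19 to 0.22 in generation 21 and was called in 2 of 5 generations, within each of which 23.3% to 27.6% of all genes were called. The interaction of sex with generation was not called for Mstn (edgeR p = 0.0894, adjusted p = 0.939). With scores of the slow-fibre, adipocyte, fibroadipogenic, macrophage, endothelial, Schwann cell and erythroid marker lists added to the model, the log2 difference was 0.09 and did not pass the test (edgeR adjusted p = 0.0750).

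Gdf11 (ENSMUSG00000025352, chromosome 10, 128882295 to 128891718, minus strand) had the widest range of the 9 genes. It ran from 0.690 to 17.4 CPM in females, with a median of 6.15, and from 0.823 to 30.6 CPM in males, with a median of 9.14. The highest library held 44.3 times the level of the lowest, and all 10 of the highest libraries were from males, 14 of which exceeded every female. The lowest values occurred in both sexes, with 5 of the 10 lowest libraries from males. The log2 difference was 0.59 (SE 0.06, 1.51-fold, edgeR adjusted p = 1.05e-18), and it was called in each of the 5 generations (0.48 to 0.74) and in each of the 5 library blocks (0.42 to 0.73). After sex and generation were removed, the SD of Gdf11 was 0.540 on the deposited variance-stabilised (VST) scale, which is close to log2 for abundant genes. This exceeded the SD of 95.2% of genes, against 85.4% for Mstn and 6.39% for Smad2, the least variable of the 9. Differences of scarce genes are compressed on the VST scale, so the order of SDs among genes also depends on their level.

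Sequence upstream of the start was at hand in RefSeq for 6 of the 9 genes (GRCm38.p6) and is shown for 3 of them. Mstn and Acvr2a are shown because they covaried most closely among animals, and Gdf11 because it varied most. Each line gives the 250 bases before the start of the gene, 5′ to 3′ on the gene's strand, and capitals mark every match to the E-box CANNTG, the motif bound by basic helix-loop-helix factors such as MyoD.
Mstn, chr1:53061390-53061639, plus strand: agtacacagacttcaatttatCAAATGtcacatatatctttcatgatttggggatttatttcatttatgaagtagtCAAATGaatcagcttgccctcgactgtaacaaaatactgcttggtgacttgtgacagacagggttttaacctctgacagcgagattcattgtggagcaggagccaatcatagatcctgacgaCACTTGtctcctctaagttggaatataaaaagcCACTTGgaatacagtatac
Acvr2a, chr2:48813859-48814108, plus strand: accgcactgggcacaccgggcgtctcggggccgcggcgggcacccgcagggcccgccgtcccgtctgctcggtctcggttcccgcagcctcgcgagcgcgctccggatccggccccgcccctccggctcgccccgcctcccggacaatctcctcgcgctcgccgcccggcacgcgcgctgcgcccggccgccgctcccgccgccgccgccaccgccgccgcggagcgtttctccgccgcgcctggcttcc
Gdf11, chr10:128891719-128891968, minus strand: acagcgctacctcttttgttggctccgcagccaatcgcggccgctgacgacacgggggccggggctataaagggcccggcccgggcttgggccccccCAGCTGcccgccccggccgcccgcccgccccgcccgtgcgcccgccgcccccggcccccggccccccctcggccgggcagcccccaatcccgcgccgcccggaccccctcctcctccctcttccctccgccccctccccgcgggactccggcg

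The E-box was found 4 times in the Mstn window, 3 times in that of Fstl3, 1 time in that of Gdf11 and not in those of Acvr2a, Acvr2b and Smad3. Of 32851 promoter windows of the same length, 66.2% held at least 1 match on either strand. The letters TATAAA, searched on both strands, occurred 29 bases before the starts of Mstn and Fstl3 and 185 bases before that of Gdf11. They were found in 12.4% of all windows. The letters CAGAC, the half-site bound by SMAD3 and SMAD4, were found in the windows of Mstn, Acvr2a, Fstl3 and Acvr2b but not in those of Gdf11 and Smad3. They were found in 42.2% of all windows. G and C made up 38.4% of the Mstn window, 81.2% of that of Gdf11 and 82.0% of that of Acvr2a, against a median of 52.4% over all windows. The upstream sequence of Mstn was thus poorer, and that of Acvr2a richer, in G and C than the median window.

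Of the secreted antagonists, Fst (ENSMUSG00000021765, chromosome 13, 114452290 to 114458951, minus strand) ranged from 3.07 to 8.66 CPM in females, with a median of 5.06, and from 2.60 to 10.3 CPM in males, with a median of 5.66. Of the 10 highest libraries 9 were from males. The log2 difference was 0.17 (SE 0.03, 1.12-fold, edgeR adjusted p = 4.93e-09), with males higher in all 5 generations and called in 3 of them. Fstl3 (ENSMUSG00000020325, chromosome 10, 79777272 to 79782630) went the other way without passing the test. Its female values ran from 0.397 to 2.90 CPM with a median of 1.27, and its male values from 0.630 to 2.42 CPM with a median of 1.22. The log2 difference was -0.06 (SE 0.04, edgeR adjusted p = 0.160), and it reached -0.09 (edgeR adjusted p = 0.0327) when libraries were scaled by total count alone. Exons of Fst overlap those of the antisense gene Gm47040, and exons of Fstl3 those of Prss57 on the opposite strand, and neither overlapping gene was in the deposited table.

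The receptor Acvr2a (ENSMUSG00000052155, chromosome 2, 48814109 to 48903269) ranged from 24.8 to 82.1 CPM in females, with a median of 38.2. In males it ranged from 26.7 to 93.6 CPM, with a median of 47.0. Of the males 84.5% exceeded the female median, the largest such share among the 9 genes, and the male library was the higher one in 75.4% of all pairings of a male with a female. The log2 difference was 0.28 (SE 0.03, 1.22-fold, edgeR adjusted p = 5.29e-19), and it was called in all 5 generations (0.21 to 0.38) and in 3 of 5 library blocks (0.15 to 0.41). Acvr2a shares exon sequence with Orc4 on the opposite strand, a gene that was in the deposited table. Whether reads from the shared sequence entered the counts of Acvr2a was not tested. Acvr2b (ENSMUSG00000061393, chromosome 9, 119402118 to 119434995), the paralog of Acvr2a, did not show the sex difference. Female levels of Acvr2b ran from 1.33 to 6.45 CPM with a median of 3.27 and male levels from 1.36 to 7.01 CPM with a median of 3.34. The log2 difference was 0.03 (95% interval -0.04 to 0.09, edgeR adjusted p = 0.561), and its sign turned to -0.01 under total count scaling and to -0.04 with the marker scores in the model.

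Of the SMAD genes, Smad3 (ENSMUSG00000032402, chromosome 9, 63646767 to 63757994, minus strand) ranged from 57.5 to 182.2 CPM in females with a median of 113.3, and from 65.2 to 195.5 CPM in males with a median of 123.8. The log2 difference was 0.14 (SE 0.03, 1.10-fold, edgeR adjusted p = 4.30e-07). Smad2 (ENSMUSG00000024563, chromosome 18, 76241580 to 76310963) varied least, from 7.50 to 14.2 CPM in females and from 8.53 to 14.9 CPM in males, with medians of 10.6 and 10.8. Its log2 difference of 0.04 (SE 0.01, edgeR adjusted p = 0.0103) was the smallest one called, and it was 0.01 (edgeR adjusted p = 0.792) under total count scaling and called in none of the 5 generations alone. For the inhibitor Smad7 (ENSMUSG00000025880, chromosome 18, 75367529 to 75395935), female values of 3.18 to 14.5 CPM and male values of 3.41 to 11.8 CPM had medians of 6.27 and 6.28. The log2 difference of Smad7 was 0.01 (95% interval -0.05 to 0.07, edgeR adjusted p = 0.805), with a sign that turned to -0.02 under total count scaling and to -0.04 with the marker scores.

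**Figure D2:**
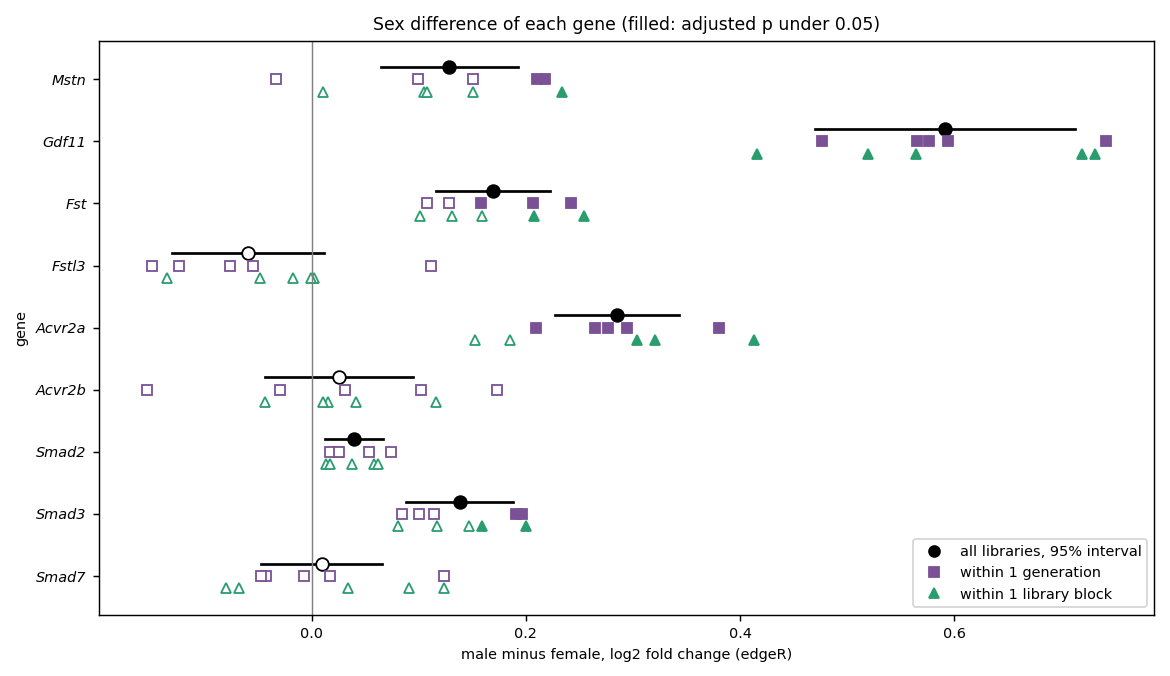
Male minus female log2 fold change of each gene (horizontal axis) over all libraries with its 95% interval (circles), within single generations (squares) and within single library blocks (triangles), filled where the adjusted p was under 0.05. Gdf11 lies between 0.42 and 0.74 and Acvr2a between 0.15 and 0.41 in every stratum, and the single generations of Mstn reach from -0.03 to 0.22.

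Marker RNAs of several cell types sampled with the muscle also differed by sex, against 24.4% of all genes higher and 30.6% lower in males. All 7 slow-fibre markers tested and 6 of 7 adipocyte markers were lower in males, and all 5 endothelial markers were higher in males. Summed slow-fibre markers ran from 573.3 to 9224 CPM in females (median 3398) and from 821.9 to 7590 CPM in males (median 2328), and no marker had a median of 0. Summed adipocyte markers ran from 434.4 to 2123 CPM in females and from 370.8 to 1443 CPM in males. None of 6 macrophage markers was called, of 6 fibroadipogenic markers 4 were lower and 1 was higher in males, and of 5 erythroid markers 3 were higher and 0 lower. The part of these markers in the sex differences was not tested. With the marker scores in the model, Gdf11, Fst, Acvr2a, Smad2 and Smad3 were called, and Mstn was not, at the values given above. Sex was not removed from these scores, and the fast-fibre and satellite-cell lists were not among them.

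The spread among animals was not called different between sexes for any of the 9 genes (limma on absolute deviations from the group median, 0 of 9 called and 2 at an unadjusted p under 0.05, against 5.55% of all genes called). Those at an unadjusted p under 0.05 were Gdf11, which deviated by 0.08 more in males on the VST scale (limma p = 0.0150, adjusted p = 0.148), and Fst, by 0.03 (limma p = 0.0137, adjusted p = 0.140). The interaction of sex with generation was called for 0 of 9 genes by edgeR, against 0.531% of all genes. Limma on the VST values called none of the 9 and no other gene (0 of 18823), and Acvr2b was the only one of the 9 at an unadjusted p under 0.05 (edgeR p = 0.0370, adjusted p = 0.773).

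Across generations, Acvr2b, Smad2, Acvr2a, Mstn and Fst differed, and each was lowest in generation 17. The study also used the wave of animals as a covariate. The labels do not give the wave, so its part in these differences was not tested. With sex in the model, 5 of 9 genes were called, while 7.56% of all genes tested were called. Acvr2b had median levels of 2.76 CPM in generation 17, 3.27 in generation 18, 3.42 in generation 19, 3.38 in generation 21 and 3.46 in generation 23. The highest and lowest fitted generations of Acvr2b lay 0.24 apart on the log2 scale (edgeR adjusted p = 0.000448). Smad2 had a smaller range of 0.11 with median levels of 10.1 CPM in generation 17, 10.5 in generation 18, 10.9 in generation 19 and 11.1 in generations 21 and 23 (edgeR adjusted p = 0.000219). The values of single animals overlapped between all generations for both genes.

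Acvr2a and Mstn had a different order of generations. Both were highest in generation 19, at medians of 45.0 CPM for Acvr2a and 69.4 CPM for Mstn, against 39.1 and 61.4 CPM in generation 17. Fitted ranges were 0.18 on the log2 scale for each (edgeR adjusted p = 0.0105 for Acvr2a and 0.0440 for Mstn). By generation 23, the fitted level of Mstn was again within 0.03 of that in generation 17. Fst had a range of 0.16 (edgeR adjusted p = 0.0470). The calls of Mstn and Fst were close to the threshold and were lost in several alternative fits, whereas those of Acvr2a, Acvr2b and Smad2 were kept in every alternative fit to both sexes together. Gdf11, Fstl3, Smad3 and Smad7 did not pass the test, with ranges of 0.04 to 0.17 (edgeR adjusted p = 0.704 to 0.954). In females alone 3 of 9 genes were called (2.85% of all genes) and in males alone 1 of 9 (2.81%). The interaction test above was not called for any of the 9.

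Library blocks moved Smad7 most. Its medians were 5.59, 6.10, 7.06, 6.12 and 6.94 CPM in blocks 1 to 5, a fitted range of 0.31 on the log2 scale (edgeR adjusted p = 7.60e-15). Acvr2a was highest in block 1, at a median of 47.2 CPM against 39.6 to 43.0 CPM in the other blocks (range 0.25, edgeR adjusted p = 1.12e-07). Mstn was also highest in block 1, at 69.6 CPM (range 0.20, edgeR adjusted p = 0.000907). With Fstl3 (range 0.19, edgeR adjusted p = 0.0133) and Smad2 (range 0.08, edgeR adjusted p = 0.00107), 5 of 9 genes were called between blocks, close to the 47.4% of all genes called. All the sex calls were kept with the block in the model. Of the variance of the 9 genes, sex took the largest shares in Acvr2a (16.5%) and Gdf11 (15.6%), generation in Acvr2b (6.31%) and Smad2 (6.14%), and block in Smad7 (11.1%).

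Whether the 9 genes rose and fell together among animals was examined in the VST values after removal of sex and generation. Of the 36 pairs, 6 were called, which required limma fits in both directions to pass an adjusted p of 0.05 over all genes. As background, the percentage of all genes called with a member was 1.96% for Gdf11, 20.4% for Smad7, 20.8% for Fst, 21% for Fstl3, 22.0% for Smad2, 23.5% for Acvr2b, 27.9% for Smad3, 41.1% for Mstn and 53.2% for Acvr2a. The median absolute r of the 36 pairs was 0.053, near that of 0.060 for all pairs of genes tested.

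Mstn and Acvr2a, a ligand and one of its receptors, had the largest r of the 36 pairs. Animals with more Mstn tended to have more Acvr2a (r = 0.42, Spearman's rho = 0.36, limma adjusted p = 4.68e-19). In a permutation test p was 1e-05, the smallest that 100000 permutations can give. Among all pairs of genes 1.10% had an absolute r at least as large. The pair had r = 0.51 in females and 0.33 in males. It was 0.38 with the marker scores in the model, 0.40 with the library block and 0.41 without the 2 libraries farthest from the median of Mstn. Within single blocks r was 0.53, 0.20, 0.30, 0.42 and 0.38, and the pair was called in blocks 1, 4 and 5 only. The same block, block 1, had the highest medians of both genes and the highest r.

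The other 5 called pairs were weak. Acvr2b and Smad3 opposed each other (r = -0.18, rho = -0.17, limma adjusted p = 0.00141, permutation p = 0.00012), with a negative r in each of the 5 blocks (-0.33 to -0.08). Fst and Acvr2a had r = 0.16 (rho = 0.11, limma adjusted p = 0.00669, permutation p = 0.00073) and a positive r in each block (0.11 to 0.35). Gdf11 and Smad2 had r = 0.16 (rho = 0.14, limma adjusted p = 0.0454, permutation p = 0.00067). Fstl3 had a negative r with both receptors, -0.13 with Acvr2a (rho = -0.09, limma adjusted p = 0.0336, permutation p = 0.00591) and -0.12 with Acvr2b (rho = -0.14, limma adjusted p = 0.0434, permutation p = 0.00815). In block 4 alone r of Fstl3 turned to 0.28 with Acvr2a and to 0.04 with Acvr2b. The paralogous ligands Mstn and Gdf11 had r = 0.02, the paralogous receptors Acvr2a and Acvr2b -0.04, and the receptor-regulated Smad2 and Smad3 -0.08, and none of these was called. Of the 5 weak pairs, Acvr2b with Smad3 and Fst with Acvr2a were also called with the marker scores in the model, with the library block in the model and without the 2 farthest libraries, whereas each of the others missed the threshold in at least 1 of these fits. With the marker scores in the model, Mstn and Smad3 were called in addition (r = -0.13, limma adjusted p = 0.0303, against -0.05 without the scores).

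**Figure D3:**
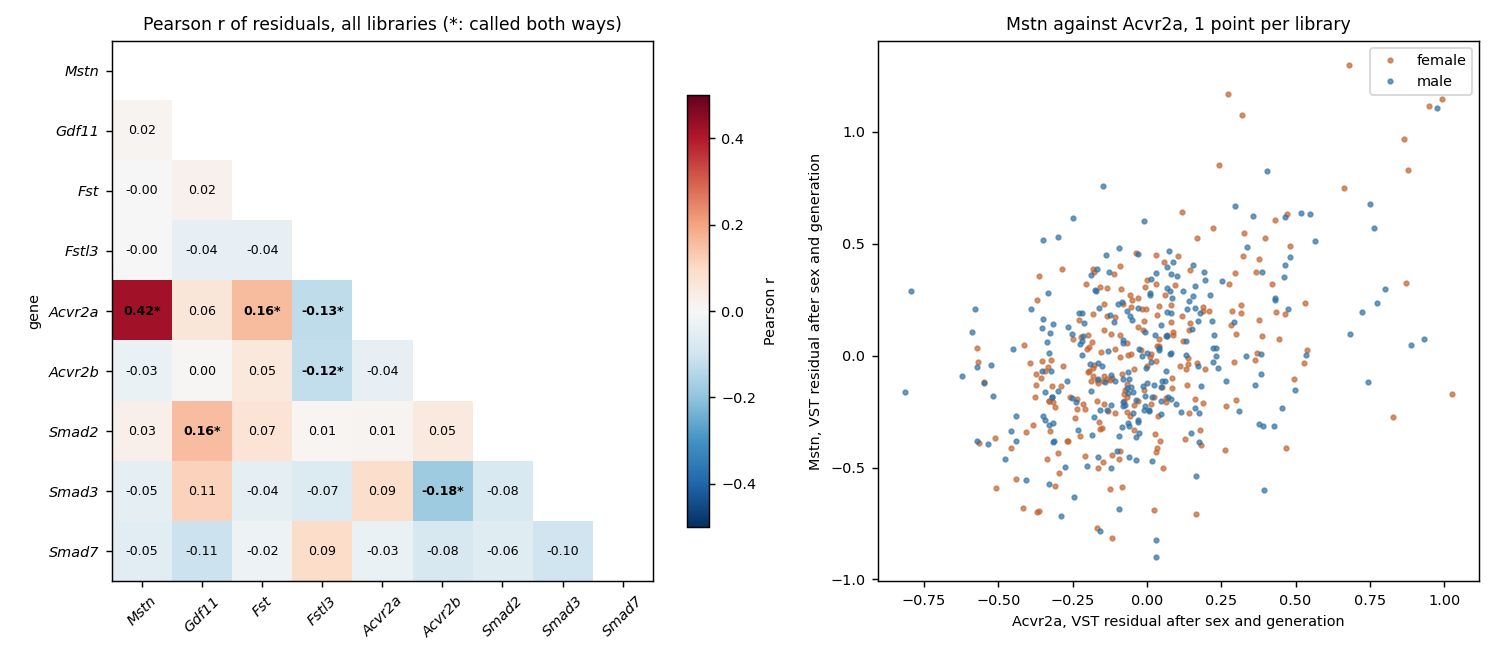
Left, Pearson r of the VST residuals for each of the 36 pairs over all libraries, with called pairs in bold and starred. Right, residuals of Mstn (vertical axis) against Acvr2a (horizontal axis) on the VST scale, 1 point per library, with females in orange and males in blue. The pair Mstn and Acvr2a stands out at r = 0.42, and libraries of both sexes lie in its upper right corner.

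The genes most like each member were also sought among all genes tested, as a description. Mstn was most like Rab12 (r = 0.57), which encodes a small GTPase, Rora (0.51), a nuclear receptor of the circadian clock, and Pnpla8 (0.50), a phospholipase, and least like Plxnd1 (-0.43), a semaphorin receptor. Rab12 and Mstn had r = 0.57 in females and 0.55 in males. Within single blocks r with Mstn ran from 0.52 to 0.62 for Rab12, 0.28 to 0.63 for Rora and 0.25 to 0.67 for Pnpla8. Acvr2a was most like the RNA-binding protein gene Syncrip (0.66), Cdc73 (0.66) of the PAF complex and the kinase gene Rps6ka3 (0.65), and least like Rbm38 (-0.56). Values for Acvr2a also differed between blocks, with r for Cdc73 from 0.29 to 0.82 and for Rbm38 from -0.75 to -0.08. For Rps6ka3 the range was narrower, from 0.51 to 0.755. Smad7 was most like Smad6 (0.42), the other inhibitory SMAD gene, followed by Bri3 (0.39) and Map3k1 (0.39), with Gpd2 (-0.35) lowest. For Bri3 r was 0.39 over all libraries but at most 0.34 within any block.

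Smad3 was most like Cntfr (0.47), Pip4k2b (0.46) and Gpr146 (0.44), and least like Lmod2 (-0.44), which encodes an actin-filament protein of the sarcomere. Smad2 had no value above that for Myo9a (0.35), followed by Zmym4 (0.34) and Dcp2 (0.34), with Slc25a4 (-0.34), the mitochondrial ADP/ATP carrier, lowest. Within single blocks r with Smad2 ran from 0.07 to 0.47 for Myo9a, 0.17 to 0.45 for Zmym4 and 0.09 to 0.44 for Dcp2. Fst was most like Marcks (0.37), Klhl13 (0.34) and Plagl1 (0.33), an imprinted zinc finger gene, and least like Abcf3 (-0.28). Fstl3 was most like Fam214b (0.34), Col18a1 (0.33) and Slc12a4 (0.32), and least like Akap10 (-0.29). Its block values ran from 0.15 to 0.45 for Fam214b, 0.17 to 0.40 for Col18a1 and 0.16 to 0.45 for Slc12a4.

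Acvr2b and Gdf11 differed from the others in that genes within 4 Mb on the same chromosome led their lists. Acvr2b was most like 4930516B21Rik, a long intergenic non-coding RNA gene on chromosome 9 (r = 0.75, and 0.74 to 0.80 within the 5 blocks). The lowest coordinates of the 2 genes lie 38.2 kb apart, a distance that includes Acvr2b itself. Acvr2b, on the plus strand, ends at 119434995, and 4930516B21Rik runs from 119440278 to 119444830, close past that end. Next came Tnrc18 (0.47) and Grip2 (0.43), and the lowest value was that for Ppp1r3c (-0.60), which encodes a regulatory subunit that directs protein phosphatase 1 to glycogen. The value for Ppp1r3c was -0.56 in females and -0.64 in males.

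For Gdf11, all 4 of the genes named lay within 750.7 kb of it on chromosome 10. Esyt1 (r = 0.38), Rdh5 (0.36) and Rbms2 (0.33) were highest and Cnpy2 (-0.37) lowest, with lowest coordinates 372.3, 31.3, 750.7 and 559.8 kb away. Of 94 genes tested within 4 Mb of Gdf11, 28 (29.8%) were called with it, against 1.82% of the 18728 genes elsewhere. Both signs occurred among these neighbours, as positive values for Esyt1, Rdh5 and Itga7 and negative ones for Cnpy2, Coq10a and Atp5b show. With the marker scores in the model, 0.244% of all genes were called with Gdf11 in place of 1.96%, and r with Esyt1 was 0.48. For Fstl3, 41.9% of 191 genes within 4 Mb were called, against 20.8% elsewhere. The share was also higher within 4 Mb than elsewhere for Smad2 (31.8% of 44 genes against 22%), Smad3 (30.8% of 78 against 27.9%) and Smad7 (23.7% of 38 against 20.4%). It was lower for Mstn (34.9% of 43 against 41.1%), Fst (16.7% of 30 against 20.8%), Acvr2a (52.2% of 23 against 53.2%) and Acvr2b (21.5% of 79 against 23.6%). Within 1 Mb, where only 5 to 26 genes were tested with each, the order turned for 5 of these 7, to higher than elsewhere for Mstn (9 of 17 genes), Fst (3 of 8), Acvr2a (4 of 5) and Acvr2b (8 of 26) and to lower for Smad7 (1 of 12). None of these differences in share was tested. Genotypes were not analysed here. Itga7, Coq10a and Atp5b were named after their values were seen.

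**Figure D4:**
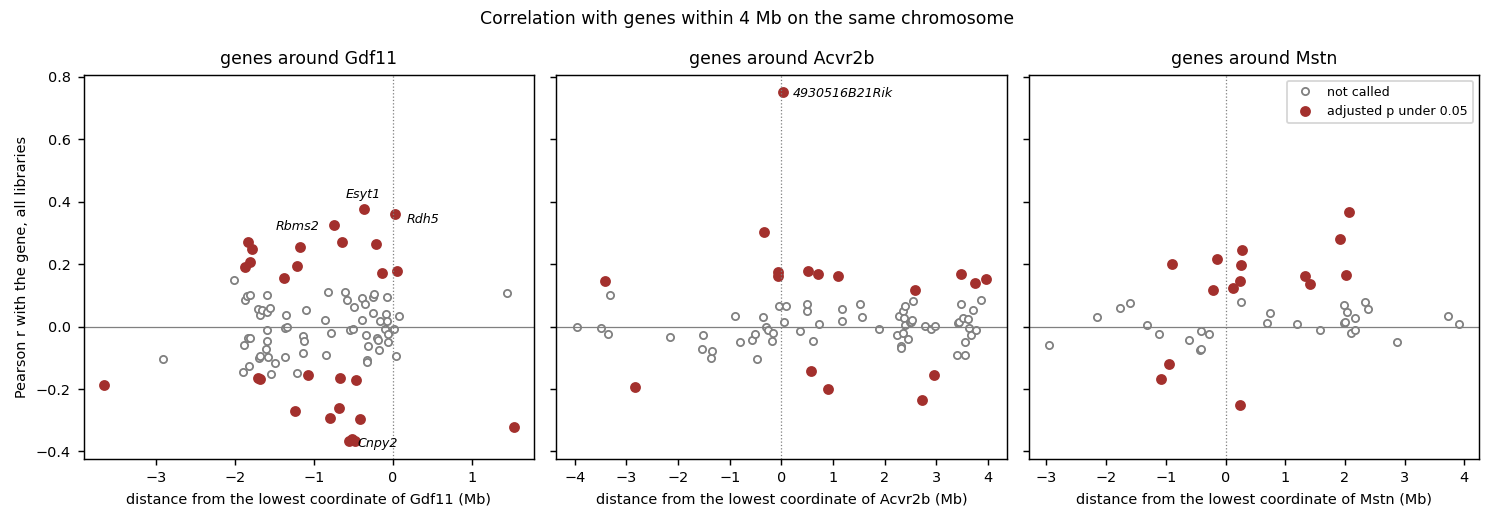
Pearson r (vertical axis) of Gdf11, Acvr2b and Mstn with each gene tested within 4 Mb on the same chromosome, against the distance between lowest coordinates in Mb, over all libraries. Filled red points passed an adjusted p of 0.05 (limma over all genes), and around Gdf11 they make up 28 of 94 genes with both signs.

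The 9 genes were also set against the marker lists among animals, as a description. Of the 81 values of r between a member and a marker list, the largest was 0.29 for Smad3 with fast-fibre markers. Smad3 also had the lowest, -0.21 with macrophage markers, followed by -0.20 for Fst with fast-fibre markers. Fst had r = 0.26 with fibroadipogenic markers, and Smad7 had 0.20 with erythroid and 0.18 with endothelial markers. Mstn had r between -0.16 and 0.12 with the 9 lists, and Acvr2a between -0.17 and 0.13.

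The wider pathway was read from 73 further genes listed by role, 70 of which were in the table and tested. Between sexes 52 were called, 30 higher and 22 lower in males, which is 74.3% against 55.0% of all genes, and their median log2 difference was 0.03 against -0.01 over all genes. Of 14 ligands, 5 were higher and 5 lower in males. Of 11 receptors and co-receptors, 5 were higher and 2 lower. Antagonists and latency proteins had 6 higher and 7 lower of 15, and proteases that process the ligands had 1 higher and 2 lower of 6. Among SMADs and their regulators 9 were higher and 3 lower of 15, and among targets 4 were higher and 3 lower of 9.

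Nodal, a ligand best known from the early embryo, had the largest rise. It was scarce, at 0 to 0.272 CPM in females (median 0.0606) and 0 to 0.721 CPM in males (median 0.145). Its log2 difference was 1.17 (SE 0.12, 2.25-fold, edgeR adjusted p = 4.49e-18), and 0.21 with limma on the VST scale. The ligand genes Gdf5 (0.64, edgeR adjusted p = 1.68e-05) and Gdf6 (0.58, edgeR adjusted p = 3.47e-13), both also scarce and at 0.12 and 0.15 with limma on the VST scale, were next, followed by the receptor gene Amhr2 (0.43, edgeR adjusted p = 4.87e-11) at medians of 1.82 CPM in females and 2.39 CPM in males. The cell-cycle inhibitor gene Cdkn1a, a transforming growth factor β target, was abundant and lower in males, at a median of 32.7 against 45.1 CPM (log2 difference -0.58, edgeR adjusted p = 4.69e-22). Inha, which encodes the inhibin α subunit, was also lower, at 1.08 against 1.44 CPM (-0.46, edgeR adjusted p = 1.49e-13). The type I receptor gene Acvr1c, at medians of 1.44 CPM in males and 2.12 CPM in females, had a log2 difference of -0.64 (edgeR adjusted p = 7.77e-11), which was -0.11 with an adjusted p of 0.173 once the marker scores were in the edgeR model. Grem1, a BMP antagonist, had the lowest fitted value of -1.19 (SE 0.19, edgeR adjusted p = 2.87e-09), which was -0.08 with limma on the VST scale. Its medians ran the other way, 0.0438 CPM in females and 0.0529 CPM in males, and all 10 of the highest libraries were from females, up to 4.42 CPM against a highest male value of 0.790.

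**Figure D5:**
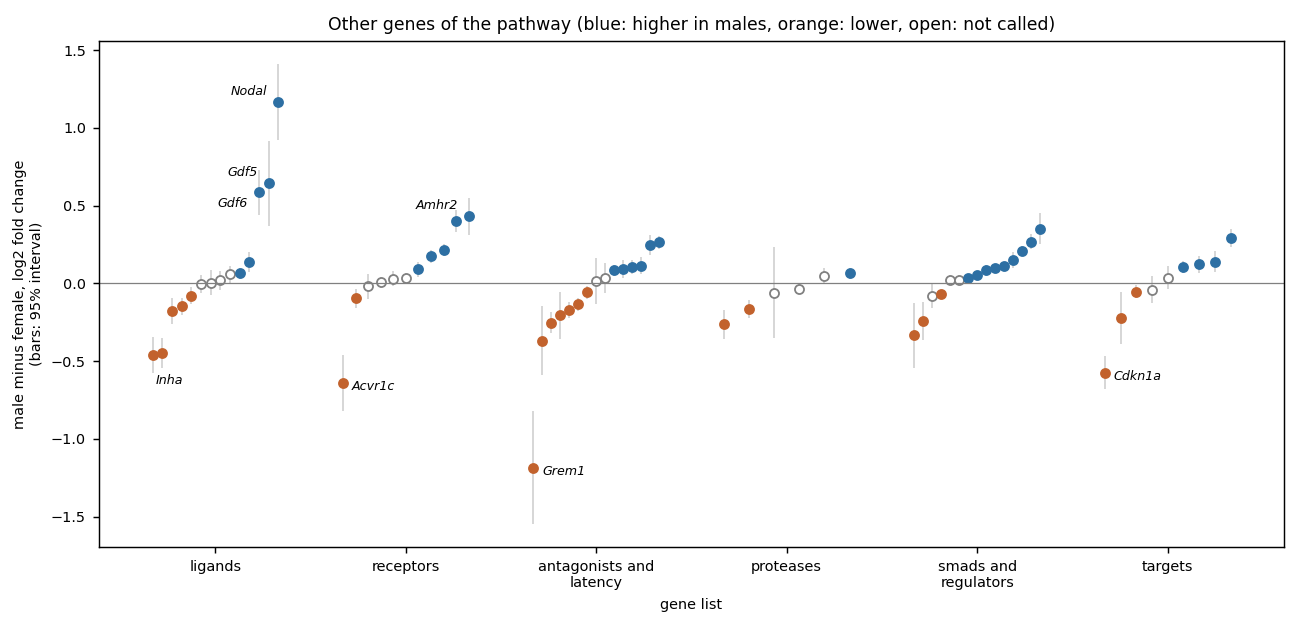
Male minus female log2 fold change (vertical axis, edgeR, bars are 95% intervals) of the 70 other pathway genes tested, grouped by role on the horizontal axis, with genes higher in males in blue, lower in males in orange and not called open. Nodal at 1.17 and Grem1 at -1.19 are the extremes, and every group holds genes of both directions.

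Across generations 11 of the 70 pathway genes were called, 15.7% against 7.56% of all genes. Ccn2, a transforming growth factor β target, had a range of 0.26 on the log2 scale (edgeR adjusted p = 0.00551), and the ligand gene Bmp2 also one of 0.26 (edgeR adjusted p = 2.68e-05). No pathway gene was called in the test of the interaction of sex with generation (0 of 70 by edgeR), where the 0.531% of all genes called would be less than 1 gene in 70.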

How the data were processed

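Poly(A) RNA-seq reads were aligned by the authors with GBRS and EMASE to a transcriptome of the founder strains (GRCm38). They deposited estimated counts per gene, not normalized, and a VST table, a score made with DESeq2 that is close to log2 for abundant genes. Their methods describe regressing out batch as a random effect, but not which deposited values this entered, and limma still called 40.2% of genes between library blocks on the VST values. Not all counts were whole, and they were rounded. Libraries were scaled by TMM, and 1789 genes were removed by filterByExpr (minimum count of 10). Sex, generation, interaction and block were tested with edgeR 4.0.16 (glmQLFTest), spread and correlations with limma 3.58.1 on the VST values, adjusted by Benjamini-Hochberg over all genes, with a threshold of 0.05. Permutation tests were 2-sided. Fits were tested on simulated data. Samples were grouped by the titles, and p-values measure the spread between animals. All tests treated the animals as independent, whereas the study fitted kinship as a random effect in its eQTL analysis. Depth (35.9 M to 165.7 M counts) limits genes under about 1 CPM most. The members and lists were chosen with earlier results of these data known. All 9 members were reported, with, of other pathway genes, up to 4 largest rises and falls among those called and 3 largest generation ranges, and for each member the 3 highest and 1 lowest correlated genes that do not overlap it. One gene that this rule names is not reported here. Positions follow GENCODE M21, and start and end agree for 99.5% of genes. Alternatives were other scalings, filters and tools, added covariates, strata and left-out libraries.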

Additional observations from a re-analysis of the deposited data

How the results depend on the processing

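Without the 5 libraries with an unusual level of Xist or Ddx3y, and under other scalings and filters, DESeq2 and limma, the counts of members called kept within 1.5 times of the reported ones except as follows. For sex, 6 of 9 members were called over all libraries, but 2 in block 1 (19.4% of all genes called), 2 in block 2 (21.6%), 1 in block 5 (23%), 3 in generation 17 (24.7%) and 2 in generation 18 (25.6%), where fewer libraries were tested, and the log2 difference of Mstn was -0.0334 in generation 19. For generation, 5 members were called, but 3 in females, 1 in males, and 3 each with limma on the VST values, with the marker scores, without the filter and without the sex term, fits that called 6.87%, 6.74%, 6.85% and 6.95% of all genes. For the pairs, 6 of 36 were called, but 2 in block 1, 0 in blocks 2 and 3, 1 each in blocks 4 and 5, 3 in females, 1 in males and 3 without the 2 farthest libraries. The share of all genes called with Mstn, 41.1% over all libraries, was 30.9%, 2.27%, 0.218%, 0.377% and 5.19% in blocks 1 to 5, 33.6% in females and 18.7% in males. In block 4, r of Fstl3 was 0.2766 with Acvr2a and 0.0418 with Acvr2b. Of the 36 tests for a difference of r between sexes, 2 had an unadjusted permutation p under 0.05, against 4 with log2 CPM and 4 without the 5 libraries. Apart from the smaller samples of single groups, the cause of these changes was not tested. Among results for single genes, 138 sex results stayed on their side of the threshold, 31 were no longer called with their direction kept, 1 (Fstl3, scaled by total count) became called and 1 reversed; among the 138, uncalled values of Acvr2b, Smad7 and Fstl3 changed sign under some settings. The total count scaling moved the median difference of all genes from -0.014 to -0.046 on the log2 scale and the share of calls that were higher in males from 44.3% to 30.8%. No interaction or spread result changed sides. No paired analysis was possible because each replicate number names 1 animal and no number is shared between groups. Depth limits the scarce genes, of which Nodal and Grem1 were at 0 in 13 to 40 libraries of each sex.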

Other observations

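The correlation of Mstn with Gdf11 had opposite signs in the sexes, r = -0.11 in females and 0.13 in males (permutation p of the difference = 0.0104). For Fst with Smad3 r was 0.07 in females and -0.14 in males (permutation p of the difference = 0.0338). These were the only 2 of 36 such tests with an unadjusted p under 0.05, which is about as many as that threshold gives by chance, and no adjusted value is given. Mstn with Gdf11 was called in neither sex alone (limma adjusted p = 0.350 in females and 0.431 in males). The difference for Mstn with Acvr2a, r = 0.51 in females and 0.33 in males, had a permutation p of 0.0517, which was 0.0397 without the 5 libraries with an unusual level of Xist or Ddx3y.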
